A study of Homo sapiens with 6 samples.

Results

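Solute carriers (SLC proteins) are the membrane proteins that move amino acids, sugars, ions, metals, vitamins, lipids and metabolites across the plasma membrane and the membranes of organelles. Their genes are named by numbered families, and a family groups proteins by sequence, so members of 1 family usually, but not always, carry related substrates. Most work as exchangers, as facilitators or as cotransporters driven by sodium, proton or chloride gradients. The mitochondrial carriers of the SLC25 family sit mainly in the inner mitochondrial membrane. In liver and in liver cancer cells these genes set the supply of glutamine, glucose, fatty acids and trace metals.

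The set described here holds the protein-coding genes whose symbol starts with SLC and a digit, without SLC6A6, SLC6A8, SLC36A1, SLC7A5, SLC7A11 and SLC39A10. Of 5187 genes listed in the count files, 98 matched the name and 92 remained after those 6 were set aside. The GENCODE annotation holds 371 genes of the same definition, and the other genes were not analysed here. The 92 genes belong to 36 numbered families and were placed in 11 substrate classes, mostly by family. SLC22A18AS matched the name but is an antisense gene of SLC22A18 and not known as a carrier. The set was chosen by gene name, with earlier results of these data known, and the listed genes themselves follow the comparison, as given below.

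The libraries came from Huh7, an established line of human hepatocellular carcinoma cells grown in medium with fetal bovine serum. There were 3 control cultures without GABA (gamma-aminobutyric acid, an inhibitory neurotransmitter that is also made outside the brain) and 3 cultures treated with GABA for 24 h. Each group's libraries are titled as biological replicates 1 to 3, and the labels used here give no dose. The labels do not say whether the cultures were started separately, so the p-values measure the spread between these cultures of 1 line. The question was which transcripts differ when GABA is added to these cells.

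The files hold 7702666 to 8392945 counts per library on the listed genes, which is not the sequencing depth. Across the tested genes the position in the files and the edgeR p-value had a Spearman correlation of 0.93, and no log2 fold change lay between -0.12 and 0.15. The listed genes are therefore almost all ones that differ in this comparison, and the direction of a difference carries more than its call. Small differences are missing from such a list, so sizes can be overstated. The adjusted p-values do not account for the genes left out of the list. None of 13 hepatocyte and Huh7 markers, such as ALB and AFP, was listed, so the identity of the line could not be checked. Markers of immune and endothelial cells were not listed either, while 2 of 6 fibroblast markers (summed 52.4 to 68.4 CPM in control and 48.2 to 54.3 CPM in GABA libraries) and 3 of 4 neuron markers (31.1 to 36.9 and 27.6 to 31.5 CPM) were. Their part in the results was not tested. Mitochondrially encoded genes took 9.11% of the counts in control replicate 3, 7.14% and 7.74% in the other control libraries and 6.66% to 7.04% in the GABA libraries. With these genes left out of the scaling, 29 SLC genes were higher and 58 lower, against 29 and 59 with them, and without control replicate 3 the counts were 29 and 56.

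Of the 92 SLC genes 90 passed the filter on low counts, 29 of them were higher with GABA, 59 were lower and 2 did not pass (edgeR quasi-likelihood test, adjusted p under 0.05). Among all 4981 tested genes 98.7% were called, 47.6% as higher and 51.2% as lower. The share of SLC genes called thus says nothing about the family, while its direction leaned to lower values. Of the called SLC genes 33.0% were higher, against 48.2% of all called genes. The median log2 fold change was -0.27 over the 90 SLC genes and -0.18 over all tested genes. The median absolute log2 fold change was 0.40 in both, and 0.37 over the tested protein-coding genes. The groups did not overlap in 79 SLC genes (87.8%), against 92.5% of all tested genes. A log2 fold change of at least 1 in size was found in 7 SLC genes, all with a mean under 20 CPM (read counts scaled to each library's total on the listed genes). That is 7.78% of the SLC genes, against 10.3% of all tested genes and 6.32% of the tested protein-coding ones. Of the 7 genes 3 passed the filter through 1 group alone.

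Summed over all 92 genes, the SLC level was 16025, 16241 and 16189 CPM in control replicates 1 to 3 and 13976, 13754 and 13700 CPM in GABA replicates 1 to 3. All GABA libraries were below all control libraries, and the mean fell by 14.5%. The amino acid transporters accounted for most of this, with 7002 ± 108 CPM in control and 5264 ± 78.5 CPM in GABA libraries (SD, n = 3). The metal transporters (1665 to 1439 CPM) and the mitochondrial carriers (2061 to 1801 CPM) were lower too. The sums of the vitamin transporters (118 to 143 CPM) and of the lipid group (1060 to 1088 CPM) were higher in the GABA mean. The sugar transporters also had a higher mean sum, but their libraries overlapped. In sums the most abundant gene weighs most, so that SLC2A1 made up 70.2% of the sugar class and SLC16A1 89.9% of the carboxylate class. A lower level of a transcript relative to the other listed genes and less RNA of it per cell cannot be told apart in such counts.

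**Figure D1:**
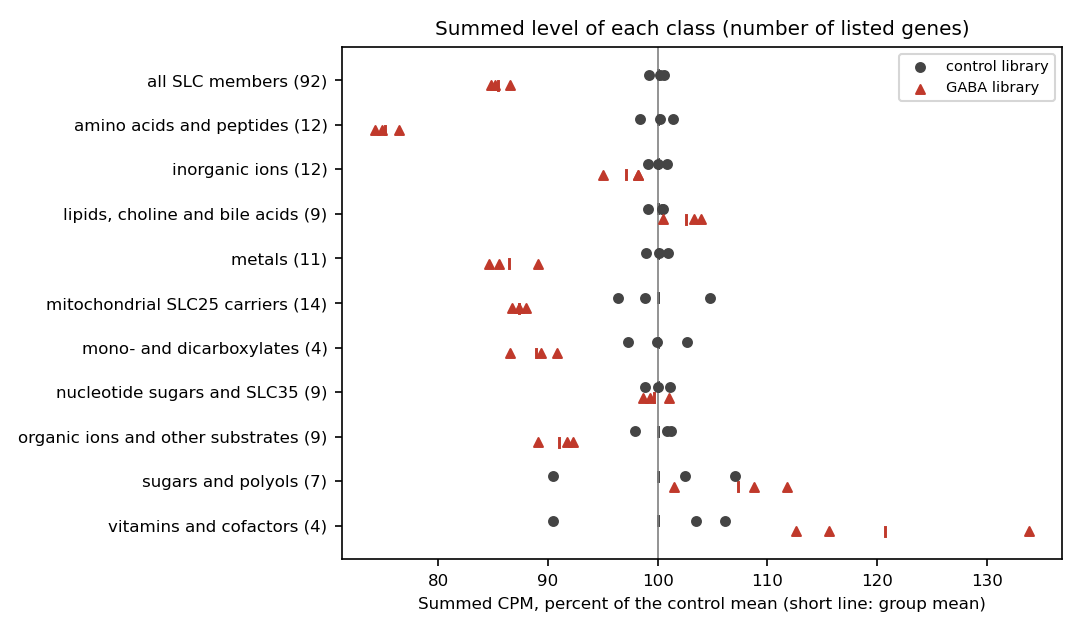
Summed CPM of the listed SLC genes of each class (number of genes in brackets) in every library, as a percent of the mean of the 3 control libraries (grey line); circles are control and triangles GABA libraries, and short lines are group means. The amino acid class lies farthest below the control mean, where the mean fell by 24.8%, and the classes of ions, lipids and nucleotide sugars lie within a few percent of it.

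**Figure D2:**
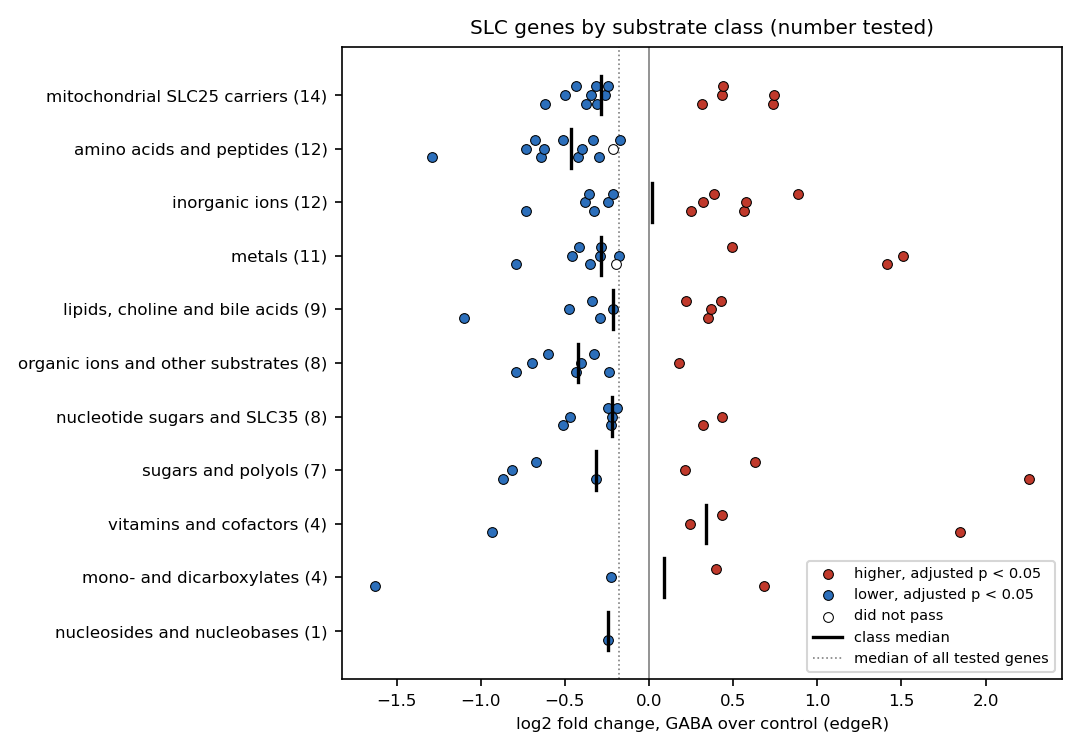
Log2 fold change (GABA over control, edgeR) of the 90 tested SLC genes, by substrate class with the number tested; red points were higher and blue points lower at an adjusted p under 0.05, open points did not pass, black bars are class medians and the dotted line is the median of all tested genes (-0.18). All 12 amino acid transporters lie below 0, whereas ion transporters lie on both sides.

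Of the 12 amino acid transporters in the set 11 fell with GABA and 1, SLC38A7, did not pass, with a median log2 fold change of -0.47. The annotation holds 63 genes of this class, and other amino acid carriers are among the 6 genes set aside, so the count covers the 12 alone. This class includes the sodium-coupled carriers of glutamine, alanine and other small neutral amino acids. Genes of this kind are known as targets of the amino acid response, in which the factor ATF4 binds composite elements when amino acids are scarce. Promoter windows from RefSeq (GRCh38.p14, 250 bases before to 50 after a transcript start) were therefore searched on both strands for the letters TGATGNAAN. All 12 genes had at least 1 window, and 4 of them (33.3%) held a match in 1 of their windows. Among the 46 lower SLC genes with a window 6 (13.0%) held one, and 4 of these are the amino acid genes just counted. Among the 23 higher ones 1 (4.35%) did. The share was 3.35% among the 3551 tested protein-coding genes with a window and 4.45% among all genes with a window. Genes differ in their number of windows, and a match is a description of letters and not of binding. The 4 matches are shown as 30-base stretches, 5′ to 3′ on the gene's strand with the match in capitals, because these genes fell together.
SLC1A4: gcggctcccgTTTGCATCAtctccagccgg
SLC1A5: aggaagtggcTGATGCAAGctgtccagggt
SLC38A1: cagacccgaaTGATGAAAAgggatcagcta
SLC3A2: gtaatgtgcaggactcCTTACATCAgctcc

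The stretch of SLC1A4 is at chr2:64989381-64989410 on the plus strand, and its match begins 8 bases before the start of 1 of 2 windows. That of SLC1A5 is at chr19:46784892-46784921 on the minus strand, beginning 97 bases before 1 of 3 starts. That of SLC38A1 is at chr12:46266501-46266530 on the minus strand, beginning 4 bases before 1 of 2 starts. That of SLC3A2 is at chr11:62881719-62881748 on the plus strand, and its match begins at base 37 after 1 of 3 starts. All 4 of these starts lie inside the gene as GENCODE draws it and not at its outer end. In SLC1A4 and SLC3A2 the letters stand in reverse orientation. SLC38A2, which fell as well, had no match in its window, and sequence outside the windows was not searched for any gene. Outside the class SLC11A2 and SLC23A3, which fell, and SLC25A11, which rose, held a match.

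SLC38A1 and SLC38A2, the sodium-coupled neutral amino acid transporters SNAT1 and SNAT2, had the smallest p-values of the class. SLC38A1 (ENSG00000111371, chromosome 12, 46183063 to 46270017) stood at 2003, 2015 and 2127 CPM in control and at 1327, 1303 and 1361 CPM in GABA libraries. The groups lie far apart relative to their spread, with a log2 fold change of -0.62 ± 0.06 (SE, adjusted p = 8.6e-06). SLC38A2 (ENSG00000134294, chromosome 12, 46358189 to 46372867) stood at 1638, 1606 and 1815 CPM in control and at 1219, 1184 and 1152 CPM in GABA libraries. Its log2 fold change was -0.51 ± 0.06 (adjusted p = 6.8e-05). Both genes lie on the minus strand with 88.2 kb between them. The third member of the family, SLC38A6, fell with -0.64 ± 0.17, and its control libraries were uneven, at 22.7, 23.7 and 34.7 CPM. SLC38A7, a lysosomal glutamine transporter, had -0.21 ± 0.10 (adjusted p = 0.054), with 84.3 CPM in the lowest control library and 87.6 CPM in the highest GABA library.

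The glutamate and neutral amino acid family SLC1 was represented by SLC1A4 (ASCT1) and SLC1A5 (ASCT2), both obligate exchangers. SLC1A5 brings in glutamine, and stood at 824, 882 and 791 CPM in control and 674, 646 and 663 CPM in GABA libraries. SLC1A4, which carries alanine, serine and cysteine, stood at 217, 210 and 213 CPM in control and 153, 171 and 161 CPM in GABA libraries. Neither gene's groups overlapped, and the log2 fold changes were similar in size, at -0.33 ± 0.06 (adjusted p = 7.4e-04) and -0.40 ± 0.07 (adjusted p = 4.6e-04). A gene on the opposite strand covers 23.8% of the exon length of SLC1A5, and whether the authors counted by strand is not given in the sources used here.

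SLC3A2 encodes the heavy chain CD98, which takes the light chains of several amino acid exchangers to the cell surface. It was the most abundant of the 92 genes per exon length, at 368 CPM per kilobase in control and 326 CPM per kilobase in GABA libraries. Next in control came SLC38A2 with 255, SLC1A5 with 249.9 and SLC38A1 with 205 CPM per kilobase. The fall of SLC3A2 was the smallest of the class, from 1887, 2058 and 1768 CPM to 1739, 1706 and 1615 CPM (log2 fold change -0.18 ± 0.07, adjusted p = 0.026). The groups lay close together without overlapping. Its call was lost without control replicate 2, without any 1 of the GABA replicates, and in both alternatives that use DESeq2 scaling.

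The remaining carriers of this class were less abundant. SLC6A9, the glycine transporter GlyT1, stood at 56.0, 51.7 and 41.1 CPM in control and at 29.5, 30.1 and 29.9 CPM in GABA libraries (log2 fold change -0.73 ± 0.12, adjusted p = 4.4e-04). It belongs to the family of sodium- and chloride-coupled transporters that also holds GABA transporters, which were not analysed here. SLC43A1 (LAT3), a facilitator of branched-chain amino acids, fell with -0.68 ± 0.21, from 10.2 ± 2.08 to 6.36 ± 1.05 CPM, a call lost without GABA replicate 3. SLC36A4, a relative of the proton-coupled amino acid transporters, fell with -0.42 ± 0.10 and SLC66A1, the lysosomal exporter of cationic amino acids, with -0.30 ± 0.10. The call of SLC66A1 was lost without control replicate 2 or GABA replicate 1 or 2. SLC6A16, an orphan of the SLC6 family, had the largest fold change at -1.29 ± 0.38, on 19, 17 and 13 counts in control and 5, 5 and 10 counts in GABA libraries, and it passed the filter through the control libraries alone. Of the 11 calls in this class 8 held in each of the 15 alternatives run.

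**Figure D3:**
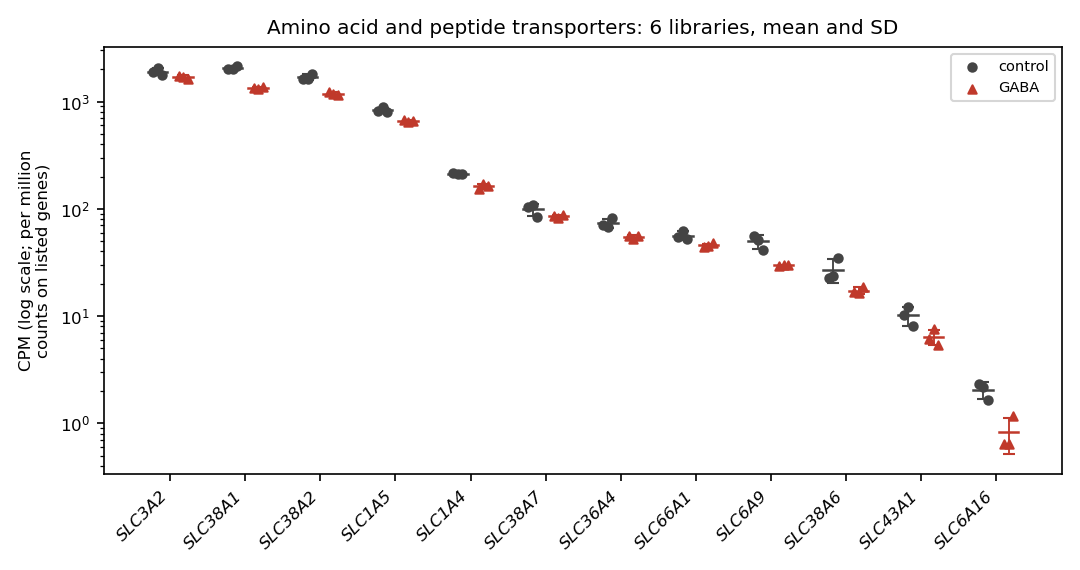
CPM (log scale) of the 12 amino acid and peptide transporter genes in each control (circles) and GABA (triangles) library, with the mean and SD of each group, ordered by level. The GABA libraries lie below the control libraries in 11 of the genes, and only those of SLC38A7 overlap.

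Sugar transporters did not move together: 3 of 7 rose and 4 fell. SLC2A1 (GLUT1), the basal glucose transporter of most proliferating cells, stood at 290, 267 and 243 CPM in control and 327, 313 and 289 CPM in GABA libraries. The groups overlapped by 1 library each, the log2 fold change was 0.21 ± 0.08 (adjusted p = 0.022), and the call was lost without GABA replicate 1 or 2. SLC37A4, the glucose-6-phosphate transporter of the endoplasmic reticulum that serves hepatic glucose release, rose from 32.4, 36.6 and 28.5 CPM to 51.4, 51.4 and 47.9 CPM. Its groups were well apart, with 0.63 ± 0.11 (adjusted p = 6.3e-04). SLC2A2 (GLUT2), the hepatocyte glucose transporter, was barely detected, at 4, 3 and 1 counts in control and 16, 10 and 14 counts in GABA libraries (2.26 ± 0.50), and it passed the filter through the GABA libraries alone.

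In the sugar class the falls were led by SLC45A4, of a family of putative proton-coupled sugar transporters, and its own substrate was not examined here. SLC45A4 went from 34.8, 33.5 and 32.6 CPM to 16.7, 16.8 and 21.6 CPM (-0.87 ± 0.13, adjusted p = 2.1e-04), the largest fall among SLC genes above 20 CPM. SLC2A10 (GLUT10) went from 15.2 ± 0.50 to 9.57 ± 0.72 CPM (-0.67 ± 0.15). SLC2A13, the proton and myo-inositol cotransporter, went from 9.49 ± 1.55 to 5.40 ± 0.59 CPM (-0.81 ± 0.20). Both had no overlap between groups. SLC37A2, a relative of SLC37A4, was called at -0.32 ± 0.14 (adjusted p = 0.048), but its groups overlapped and the call was lost in 9 of the 15 alternatives.

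Inorganic ion transporters were split evenly, with 6 of 12 higher and 6 lower and a median of 0.02. All 3 listed genes of SLC4, a family known mainly for bicarbonate transport that regulates cell pH, rose. The annotation holds 11 genes of this family. SLC4A8, a sodium-driven chloride and bicarbonate exchanger, stood at 21.6, 22.9 and 25.2 CPM in control and 40.8, 47.2 and 40.6 CPM in GABA libraries (0.88 ± 0.12, adjusted p = 8.5e-05). SLC4A7 (NBCn1), a sodium and bicarbonate cotransporter, had the highest level of the 3 per exon length (28.5 CPM per kilobase in control) and stood at 265, 255 and 304 CPM against 348, 352 and 327 CPM (0.32 ± 0.08, adjusted p = 0.0031). SLC4A11 rose from 30.01 ± 2.12 to 44.7 ± 3.48 CPM (0.58 ± 0.11). No GABA library of these 3 genes overlapped a control library, and their calls held in all 15 alternatives.

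The pair of listed cation and chloride cotransporters went in opposite directions. SLC12A4 (KCC1), which moves potassium and chloride out of the cell, stood at 174, 203 and 165 CPM in control and 217, 220 and 208 CPM in GABA libraries (0.25 ± 0.08, adjusted p = 0.012). SLC12A2 (NKCC1), which brings in sodium, potassium and chloride, stood at 59.7, 52.7 and 56.6 CPM in control and 47.7, 44.1 and 50.7 CPM in GABA libraries (-0.25 ± 0.10, adjusted p = 0.030). In neither gene did the groups overlap. The call of SLC12A2 was lost in both alternatives with DESeq2 scaling and without control replicate 1 or GABA replicate 1 or 2, while that of SLC12A4 held throughout. As background, the balance of these 2 kinds of cotransporter sets the chloride gradient on which the response of a cell to ionotropic GABA receptors depends.

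Sulfate transporters of the SLC26 family also diverged. SLC26A2, a widely expressed sulfate and chloride exchanger, had the highest level per exon length of the ion transporters (79.9 CPM per kilobase in control) and went from 696, 693 and 674 CPM to 549, 534 and 526 CPM (-0.36 ± 0.06, adjusted p = 3.2e-04). SLC26A1, the sulfate transporter first known from liver, went from 20.03, 19.2 and 14.1 CPM to 28.1, 25.6 and 25.3 CPM (0.57 ± 0.15, adjusted p = 0.0046). The calcium exchangers were split as well, with SLC24A1, which also needs potassium, higher (0.39 ± 0.11), and SLC8B1, the mitochondrial sodium and calcium exchanger, and SLC8A1 (NCX1) lower (-0.33 ± 0.09 and -0.38 ± 0.14). SLC34A3, a phosphate cotransporter, was lower at -0.73 ± 0.25, with overlapping groups. The rises in this class held in all 15 alternatives, but of the 6 falls only those of SLC26A2 and SLC8B1 did. The number of falls was 2 without control replicate 1, 2 without GABA replicate 1, 3 without GABA replicate 2 and 3 with DESeq2.

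**Figure D4:**
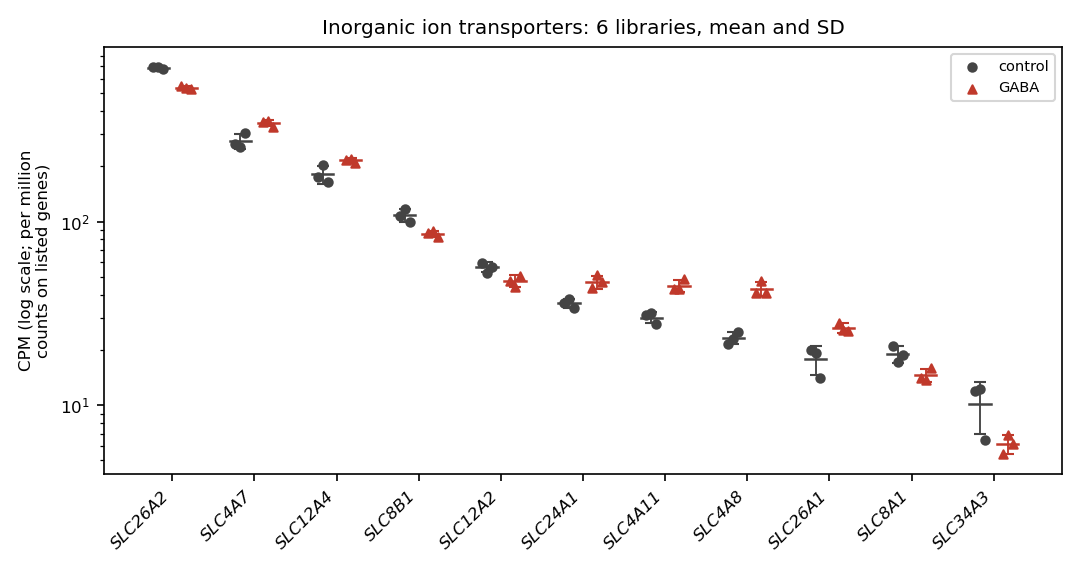
CPM (log scale) of 11 inorganic ion transporter genes in each control (circles) and GABA (triangles) library, with the mean and SD of each group, ordered by level. SLC4A7, SLC4A8, SLC4A11, SLC12A4, SLC24A1 and SLC26A1 lie higher in the GABA libraries and the other 5 genes lower, with overlap in SLC34A3.

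Of the 11 metal transporters 3 rose, 7 fell and 1, the Golgi zinc transporter SLC30A7, did not pass (adjusted p = 0.057). SLC31A1 (CTR1), the copper importer of the plasma membrane, stood at 149, 173 and 169 CPM in control and 119, 126 and 123 CPM in GABA libraries (-0.41 ± 0.08, adjusted p = 8.3e-04). SLC31A2, its neighbour 57.4 kb away on chromosome 9, went the other way on 6, 5 and 3 counts in control and 10, 11 and 20 counts in GABA libraries (1.51 ± 0.45). Other genes cover 63.1% of the exons of SLC31A2, mainly FKBP15, and it passed the filter through the GABA libraries alone. The direction of this second gene is therefore uncertain.

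SLC40A1 (ferroportin), the cell's iron exporter, went from 8.13, 6.35 and 4.96 CPM to 3.98, 3.88 and 3.42 CPM (-0.79 ± 0.25, adjusted p = 0.011), and its call was lost without control replicate 1. SLC11A2 (DMT1), an importer of ferrous iron, fell with -0.29 ± 0.09, and SLC39A14 (ZIP14), which imports zinc and iron and is abundant in liver, with -0.18 ± 0.06. The call of SLC11A2 was lost without GABA replicate 2, and that of SLC39A14 under DESeq2 scaling or without GABA replicate 2 or 3. SLC39A13 (ZIP13) went from 212 ± 12.1 to 174 ± 0.61 CPM (-0.28 ± 0.07), whereas SLC39A3 (ZIP3), another zinc importer, rose from 54.0, 45.3 and 45.4 CPM to 64.7, 71.3 and 67.4 CPM (0.49 ± 0.10, adjusted p = 0.0014). SLC30A2, a zinc transporter of vesicles, rose from 1.59 ± 0.50 to 4.26 ± 1.11 CPM (1.41 ± 0.33). The magnesium transporters SLC41A3 and SLC41A2 fell, with -0.46 ± 0.12 and -0.35 ± 0.15, and the groups of SLC41A2 overlapped. Without GABA replicate 2 the number of metal transporters that fell was 4.

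Mitochondrial carriers formed the largest class, with 14 genes, of which 5 rose and 9 fell (median -0.29). A pair of carriers that exchange malate rose. SLC25A11, the oxoglutarate and malate carrier, had the smallest p-value of the class and stood at 182, 194 and 181 CPM in control and 252, 255 and 250.1 CPM in GABA libraries (0.44 ± 0.06, adjusted p = 1.6e-04). SLC25A10, the dicarboxylate carrier, stood at 10.9, 11.0 and 9.79 CPM in control and 17.6, 16.4 and 19.0 CPM in GABA libraries (0.74 ± 0.15, adjusted p = 0.0012), although 46.6% of its exon length is shared with a gene on the same strand. Neither gene's groups overlapped.

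Both aspartate and glutamate carriers fell, which together with SLC25A11 make up the carriers of the malate-aspartate shuttle. SLC25A13 (citrin), the form typical of liver, stood at 107, 112 and 121 CPM in control and 75.8, 88.1 and 75.9 CPM in GABA libraries (-0.50 ± 0.09, adjusted p = 6.3e-04). SLC25A12 (aralar) stood at 67.7, 50.2 and 66.5 CPM in control and 51.4, 42.0 and 54.6 CPM in GABA libraries (-0.32 ± 0.13, adjusted p = 0.035). The groups of SLC25A12 overlapped, and its call was lost in 6 of the 15 alternatives. It was the 1 gene among the 14 carriers whose call did not hold in all of them.

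Other carriers of this family went both ways. SLC25A37 (mitoferrin-1), the iron importer, went from 411, 428 and 404 CPM to 338, 301 and 321 CPM (-0.37 ± 0.07, adjusted p = 6.3e-04). SLC25A43, a carrier whose substrate is not established, had the largest fall, from 115, 116 and 137 CPM to 74.4, 82.9 and 83.3 CPM (-0.62 ± 0.09, adjusted p = 2.2e-04). SLC25A24, the carrier of ATP-magnesium and phosphate, SLC25A26, the importer of S-adenosylmethionine, and SLC25A36, a pyrimidine nucleotide carrier, fell with -0.35 ± 0.08, -0.43 ± 0.10 and -0.24 ± 0.07. SLC25A16 and SLC25A46, the latter a protein of the outer membrane involved in mitochondrial shape, fell with -0.31 ± 0.09 and -0.26 ± 0.08. SLC25A45 rose with 0.73 ± 0.15. SLC25A4, the ADP and ATP translocase ANT1, rose with 0.32 ± 0.10, but near-identical relatives can share its reads.

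**Figure D5:**
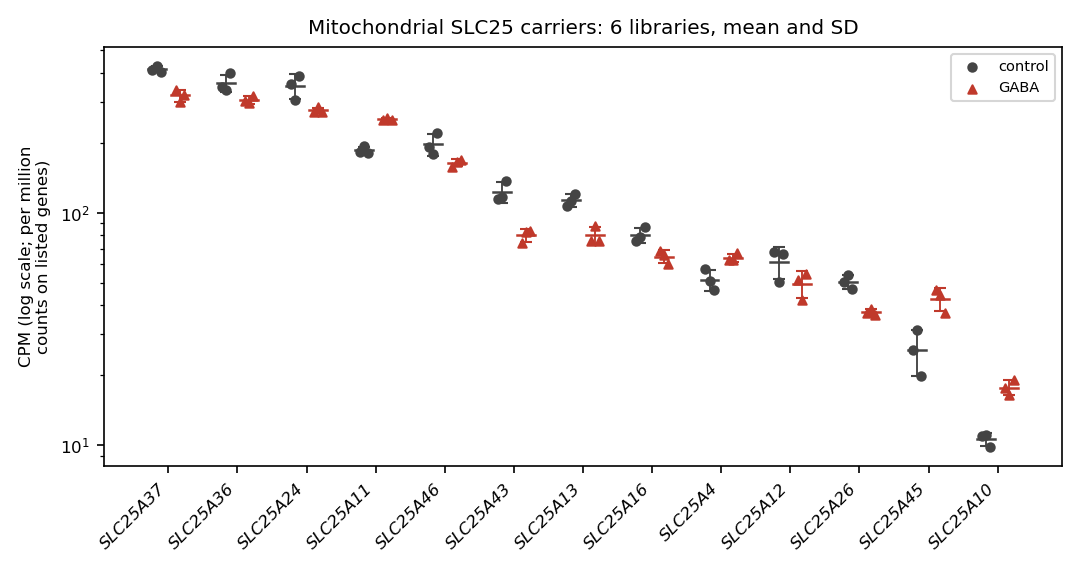
CPM (log scale) of 13 mitochondrial SLC25 carrier genes in each control (circles) and GABA (triangles) library, with the mean and SD of each group, ordered by level. SLC25A11, SLC25A4, SLC25A45 and SLC25A10 lie higher in the GABA libraries and the other 9 lower, with overlap in SLC25A12.

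Carboxylate transporters of the SLC16 family were split, with 2 higher and 2 lower. SLC16A1 (MCT1), which carries lactate and pyruvate with a proton, stood at 393, 377 and 408 CPM in control and 338, 329 and 342 CPM in GABA libraries (-0.22 ± 0.06, adjusted p = 0.0067). SLC16A9, linked to carnitine efflux, had the largest fall of all 92 genes, from 4.13, 4.40 and 3.94 CPM to 1.03, 1.55 and 1.42 CPM (-1.63 ± 0.29, adjusted p = 5.4e-04). SLC16A12, a creatine transporter, rose from 5.91 ± 0.52 to 9.50 ± 1.18 CPM (0.68 ± 0.19), and SLC16A13 from 26.3 ± 4.36 to 34.6 ± 1.86 CPM (0.40 ± 0.13). None of the 4 genes overlapped between groups, and their calls held in all 15 alternatives.

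Among 9 genes of lipid, choline and bile acid families 4 rose and 5 fell. The fatty acid transport proteins, which also activate fatty acids to acyl-CoA, were not uniform. SLC27A4 stood at 155, 176 and 139 CPM in control and 199, 197 and 202 CPM in GABA libraries (0.35 ± 0.08, adjusted p = 0.0035), and SLC27A2, the form of liver and kidney, at 106, 89.1 and 122 CPM against 136, 141 and 133 CPM (0.37 ± 0.10, adjusted p = 0.0060). SLC27A1 fell instead, from 101 ± 12.7 to 79.7 ± 0.97 CPM (-0.34 ± 0.10). Groups did not overlap in any of these 3. Of the choline transporter-like proteins, SLC44A1 rose (0.22 ± 0.07) while SLC44A2 (-0.22 ± 0.06) and SLC44A3 fell, the last from 13.0, 6.99 and 13.2 CPM to 3.60, 5.81 and 6.02 CPM (-1.10 ± 0.28). SLC33A1, which takes acetyl-CoA into the endoplasmic reticulum, fell with -0.47 ± 0.13, and another gene covers 21.1% of its exons. SLC10A7 rose (0.43 ± 0.16) and SLC10A3 fell with overlapping groups (-0.29 ± 0.12), and both calls were lost without control replicate 2 or any 1 of the GABA replicates.

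Nucleotide sugar transporters and their SLC35 relatives, which supply the Golgi and the endoplasmic reticulum with activated sugars, had 2 genes higher and 6 lower among 8 tested. SLC35A4 rose from 253, 249 and 238 CPM to 306, 314 and 305 CPM (0.32 ± 0.06, adjusted p = 9.7e-04). SLC35E3 rose from 48.4, 48.9 and 47.4 CPM to 66.2, 62.4 and 66.7 CPM (0.43 ± 0.09, adjusted p = 0.0014). Of the falls, SLC35D2 (-0.51 ± 0.12), of whose exons 46.8% are shared with another gene, and SLC35F3 (-0.47 ± 0.13) held in all 15 alternatives. Those of SLC35C1, the GDP-fucose transporter, and of SLC35C2, SLC35G2 and SLC35A5 were small, between -0.24 and -0.19, and the groups of SLC35A5 overlapped. The number of falls was 3 without control replicate 1 or GABA replicate 1 and 2 without GABA replicate 2, without GABA replicate 3 and under DESeq2 scaling. SLC35G5 was not tested, with 0 counts in every control library and 7, 4 and 5 counts in GABA libraries.

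Of 4 vitamin transporters 3 rose and 1 fell. SLC46A1 (PCFT), the proton-coupled folate transporter, stood at 28.0, 30.04 and 21.5 CPM in control and 39.6, 31.9 and 36.0 CPM in GABA libraries (0.43 ± 0.14, adjusted p = 0.012), and other genes cover 61.5% of its exons. SLC19A1, the reduced folate carrier, stood at 88.0, 88.3 and 78.5 CPM in control and 110, 94.6 and 97.4 CPM in GABA libraries (0.24 ± 0.09, adjusted p = 0.021). Both folate carriers were thus higher without overlap, but both calls were lost without GABA replicate 1, which left 1 gene called higher in the class. The riboflavin transporter SLC52A1 rose from 0.84 ± 0.73 to 3.09 ± 1.504 CPM (1.85 ± 0.54), with overlapping groups. SLC23A3, an orphan of the ascorbate family, was called lower (-0.93 ± 0.39), but its GABA libraries read 5.78, 1.94 and 1.53 CPM. Its groups overlapped, and the call was lost without control replicate 1 or 2 and without GABA replicate 2 or 3. A gene on the same strand shares 47.9% of its exon length.

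Carriers of organic ions and those with other substrates were mostly lower, with 1 of 8 tested genes higher and 7 lower (median -0.42). SLC22A15, of the organic cation and carnitine family, stood at 74.4, 76.0 and 88.1 CPM in control and 49.2, 43.8 and 45.1 CPM in GABA libraries (-0.79 ± 0.10, adjusted p = 7.6e-05). SLC66A3, a PQ-loop protein, stood at 74.7, 66.2 and 92.2 CPM in control and 49.6, 45.9 and 48.3 CPM in GABA libraries (-0.70 ± 0.12, adjusted p = 5.0e-04). SLC22A5 (OCTN2), the sodium-coupled carnitine transporter, fell from 44.2 ± 4.27 to 33.4 ± 3.20 CPM (-0.40 ± 0.12), and SLC35F6, a lysosomal protein, from 258 ± 19.7 to 205 ± 4.95 CPM (-0.33 ± 0.07). SLC18B1, a vesicular polyamine transporter, fell from 23.7 ± 1.42 to 17.5 ± 1.56 CPM (-0.44 ± 0.13). These 5 falls held in all 15 alternatives. SLC66A2 fell with -0.24 ± 0.09 and SLC22A18AS with -0.60 ± 0.20, and their calls were lost without GABA replicate 2 or 3, that of SLC66A2 also in other settings. SLC22A14 was not tested, with 2, 0 and 1 counts in control and 7, 5 and 10 counts in GABA libraries. The 1 nucleobase transporter listed, SLC43A3, fell from 90.3 ± 5.94 to 76.1 ± 4.16 CPM (-0.25 ± 0.09, adjusted p = 0.019), a call lost with DESeq2 and without GABA replicate 1 or 3, and 29.9% of its exon length is shared with a gene on the same strand.

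The share of higher genes was similar at low and high levels. Higher genes made up 35.3% of the called SLC genes under 20 CPM, 33.3% of those from 20 to 100 CPM and 31.0% of those at 100 CPM or more. Over all listed genes these shares were 51.3%, 44.3% and 49.8%. Higher and lower SLC genes had median exon lengths of 4552 and 5178 bases, against 5048 bases over all tested genes. Among the 30 SLC genes at 100 CPM or more, 9 rose and 20 fell, and log2 fold changes stayed between -0.62 and 0.44. The median absolute log2 fold change of these 30 genes was 0.31, against 0.29 over all listed genes of that level.

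Other motif letters were looked for in the same windows. CACGTG, an E-box, was found in windows of 13 of 46 lower SLC genes (28.3%) and 3 of 23 higher ones (13.0%), against 12.8% of tested protein-coding genes. Over all tested protein-coding genes the shares were 12.2% of lower and 13.5% of higher ones. TGACNNNGC, the core of the antioxidant response element, was found in 23.9% of lower and 21.7% of higher SLC genes, against 19.4%. TGCGCNC or TGCACNC, the core of the metal response element, was found in 52.2% of both, against 47.5%. Among the 12 amino acid transporters the E-box letters were found in 4 genes (33.3%), as many as held the amino acid response letters, those of the metal element in 7 (58.3%) and those of the antioxidant element in 3. No test was made of these shares.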

How the data were processed

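Integer read counts per Ensembl gene were deposited by the authors in 1 file per library, per the file headers. Per the submitters' processing notes, CASAVA 1.8, Bowtie 0.12.2 and the hg38 build were used. The counter, its annotation and its strand setting are not given in the sources used here. Other genes cover more than 10% of the exon length in 15 of the 92 SLC genes. Among those not marked above are SLC27A2 (19.9%), SLC25A26 (15.5%), SLC25A24 (13.7%), SLC22A18AS (12.7%) and SLC26A1 (12.4%), all covered on the opposite strand. All 5187 identifiers were found in GENCODE release 29, which gave gene types, coordinates and union exon lengths, and symbols came from a gene name table. Counts were tested with edgeR 4.0.16 (R 4.3.3; filterByExpr with minimum count 10 and minimum total 15, TMM, robust quasi-likelihood F test, Benjamini-Hochberg over 4981 genes, threshold 0.05). The filter removed 206 genes, 2 of them SLC genes, and 3 SLC genes passed it through 1 group alone. Log2 ratios have GABA in the numerator and carry the model's SE, levels are CPM as mean ± SD over 3 libraries, and CPM per kilobase divides by exon length. No list was tested as a set. Same-numbered libraries did not deviate together. No pair of libraries agreed within sampling noise (chi-square per degree of freedom 2.70 to 5.38, and 17.8 and 25.7 for control replicate 3 against the other control libraries). All 6 were kept.

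Members, classes, lists and tests were chosen with earlier results of these data known. Genes were named by a rule (up to 4 per class by p-value and the 8 largest rises and falls, all averaging 5 CPM or more with groups that do not overlap, and 22 fixed symbols, of which 10 were listed). Genes named beyond it were chosen after their values were seen. Some genes counted here are not reported by name or drawn singly. Protein sequences were not used here. The test was checked on simulated counts in which most genes were unchanged and all libraries equally variable. Here 98.7% of the tested genes were called and control replicate 3 was less even, so that check does not cover such a list. Alternatives used DESeq2 1.42.0, limma-voom (limma 3.58.1), other scalings and filters, a replicate block and each library left out; a scaling without mitochondrially encoded genes was added after the data had been seen.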

Additional observations from a re-analysis of the deposited data

How the results depend on the processing

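Among 15 alternatives, no called SLC gene changed sign in any of 1318 gene and setting values. SLC2A2 and SLC31A2 were not tested with the filter on a mean count of at least 10. In every alternative that tested the gene, 61 of 88 calls (24 higher, 37 lower) held. Listed genes differ in this same comparison, so such stability was largely fixed beforehand. The number of SLC genes higher was 24 to 29 and lower 41 to 56 with a library left out, 29 and 46 with DESeq2 size factors, 31 and 44 with DESeq2, 31 and 59 without a filter. The replicate block gave 29 and 57. The replicate numbers did not pair the libraries (correlations of deviations 0.00075, -0.093 and -0.037), and the labels do not say what a number marks. DESeq2 called 2 SLC35 genes lower, as DESeq2 size factors did, 3 ion and 0 nucleobase transporters lower and 2 genes of the organic ion class higher, as the fit without a filter did. With a library left out, the ranges were 2 to 6 for ion genes lower, 2 to 5 for SLC35 genes lower, 4 to 8 for metal genes lower, 0 to 1 for nucleobase genes lower, 0 to 1 for vitamin genes lower, 1 to 3 for vitamin genes higher and 0 to 1 for organic ion genes higher. The median log2 fold change of the ion class was 0.02, and ranged from -0.0015 (without control replicate 2) to 0.0369 with a library left out. The cause of these shifts was not tested. Identity between protein pairs was not run. Genes at a few counts, such as SLC2A2, SLC31A2 and SLC52A1, have fold changes of low precision.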

Other observations

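Other transport genes were read from lists of names, each beside the 47.6% of tested genes that were higher. Of 10 genes named as members of the ABC family, most of which encode ATP-driven pumps, 7 rose and 3 fell (median log2 fold change 0.60). Among the rises were ABCA2 (0.74 ± 0.09), ABCB9 (0.82 ± 0.08) and ABCC10 (0.73 ± 0.10). The falls were in ABCC3 (-1.34 ± 0.12), ABCC2 (-0.41 ± 0.07), the canalicular pump of organic anions, and ABCC4 (-0.33 ± 0.07). Both listed organic anion transporters of the SLCO family rose, SLCO2A1 with 0.83 ± 0.12 and SLCO4A1 with 0.69 ± 0.18. Of 12 genes picked by the symbols of the proton pump of lysosomes, 6 rose and 6 fell. Among these falls is ATP6V1FNB (-1.08 ± 0.15), which is named as a neighbour of the subunit gene ATP6V1F. Of 4 MFSD relatives 3 rose, led by MFSD2A, a carrier of lysophosphatidylcholine, with 1.21, and 3 of 4 genes of mitochondrial protein import rose. The 1 listed subunit of the sodium pump, ATP1B3, fell with -0.16. Among regulators of carrier proteins, NEDD4L, a ubiquitin ligase that removes carriers from the membrane, rose with 0.55 and WNK1, a kinase upstream of the SLC12 cotransporters, with 0.18, while SGK3, a kinase, fell with -0.60. SGK1 (0.94 ± 0.06) rose, and TXNIP (-1.17 ± 0.08) and LAPTM4A (-0.24 ± 0.08) fell.

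Noncoding transcripts named after SLC genes gave further values. SLC38A4-AS1 starts on the opposite strand near SLC38A2 on chromosome 12. It stood at 6.92, 10.2 and 6.87 CPM in control and 14.6, 12.02 and 13.0 CPM in GABA libraries (0.72 ± 0.20, adjusted p = 0.0058), opposite in direction to SLC38A1 and SLC38A2. SLC16A1-AS1 fell from 77.2 ± 7.95 to 63.0 ± 2.44 CPM (-0.29 ± 0.10), as did SLC16A1, with which it shares exon bases. SLC25A25-AS1 fell from 31.0 ± 1.75 to 18.7 ± 3.71 CPM (-0.73 ± 0.15).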
